A study of Mus musculus with 8 samples.

Results

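The experiment described here asks where C498 and LPS did not act independently on macrophage mRNA levels. It used 4 groups of 2 samples, 8 in all, of mouse peritoneal macrophages that thioglycollate had drawn into the abdominal cavity. The study worked with male C57BL/6 mice aged 6 to 8 weeks. Cells received the vehicle DMSO alone (NC), LPS at 100 ng/ml for 4 h (LPS), C498 at 15 µM (C498), or C498 for 0.5 h and then LPS for 4 h (C498+LPS). How long the NC and C498 samples were kept before collection is not stated, so exposure to C498 may differ between C498 and C498+LPS. The part of such a difference in the interaction was not tested. C498 is a small molecule that the study examines as an inhibitor of JAK/STAT and NFκB signalling, and the mice carried no engineered allele that the labels name. For each gene the difference between C498+LPS and C498 was set against the difference between LPS and NC on a log2(TPM + 1) scale, where TPM is an mRNA level scaled by gene length and by the total of the sample. Of 55801 genes listed, 12189 had a mean TPM of at least 1 and were tested, and 57 of these were called non-additive.

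LPS, the lipopolysaccharide of Gram-negative bacteria, is carried by CD14 to the TLR4 receptor on macrophages. TLR4 signals through MyD88 and TRIF to NFκB, MAP kinases and interferon regulatory factors, which switch on cytokine, chemokine and prostaglandin synthesis genes within hours. When an agent changes a gene by the same factor with and without LPS, the interaction on the log scale is 0. A negative interaction means that the signed LPS difference was lower under C498 than under vehicle, whether as a smaller rise, a larger fall or a rise that turned into a fall. It can arise because C498 alone gave a higher level than vehicle, here called a raised baseline, because the level reached under LPS was lower, or both. Since the collection time of the C498 samples is not stated, their level need not be the level when LPS was added.

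The promoters of 5 non-additive genes are printed first because they belong to the chemokine genes and the phosphatase gene described below, which fall in different classes of the sort. Cxcl1, Cxcl2 and Cxcl3 are neighbouring chemokine genes on chromosome 5 that attract neutrophils, and C498 alone raised the first pair while its difference in the third did not pass the test. Cxcl10, on the same chromosome, encodes a chemokine for T cells, and Dusp1, on chromosome 17, encodes a phosphatase that switches off MAP kinases. Each sequence is the 250 bases before the RefSeq transcription start on GRCm38.p6, read 5′ to 3′ on the strand of the gene. Capitals mark matches on either strand to the κB motif GGNNTTTCC, the AP-1 motif TGANTCA, the interferon response motif GAAANNGAA or the cAMP response element (CRE) TGACGTCA.
Cxcl1, chr5:90890995-90891244, plus strand: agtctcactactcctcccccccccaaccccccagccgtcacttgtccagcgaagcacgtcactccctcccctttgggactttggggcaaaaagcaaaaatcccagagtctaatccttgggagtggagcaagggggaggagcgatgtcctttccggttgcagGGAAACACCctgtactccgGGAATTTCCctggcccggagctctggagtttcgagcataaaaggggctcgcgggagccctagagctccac
Cxcl2, chr5:90903649-90903898, plus strand: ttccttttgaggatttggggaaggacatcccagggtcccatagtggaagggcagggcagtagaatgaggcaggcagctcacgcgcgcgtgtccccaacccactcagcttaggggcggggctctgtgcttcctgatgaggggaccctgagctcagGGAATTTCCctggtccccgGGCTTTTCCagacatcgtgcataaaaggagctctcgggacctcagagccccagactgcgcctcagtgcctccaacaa
Cxcl3, chr5:90785851-90786100, plus strand: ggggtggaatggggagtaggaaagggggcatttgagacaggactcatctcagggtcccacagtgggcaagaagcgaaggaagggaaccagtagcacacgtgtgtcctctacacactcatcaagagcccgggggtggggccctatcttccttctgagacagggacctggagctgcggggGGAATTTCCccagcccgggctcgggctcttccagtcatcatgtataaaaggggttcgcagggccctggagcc
Cxcl10, chr5:92348890-92349139, minus strand: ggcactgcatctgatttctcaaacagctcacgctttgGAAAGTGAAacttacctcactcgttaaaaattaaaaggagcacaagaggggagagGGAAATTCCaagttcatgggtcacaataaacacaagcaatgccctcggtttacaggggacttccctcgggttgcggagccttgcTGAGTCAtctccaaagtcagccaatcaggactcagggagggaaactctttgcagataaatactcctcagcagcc
Dusp1, chr17:26508473-26508722, minus strand: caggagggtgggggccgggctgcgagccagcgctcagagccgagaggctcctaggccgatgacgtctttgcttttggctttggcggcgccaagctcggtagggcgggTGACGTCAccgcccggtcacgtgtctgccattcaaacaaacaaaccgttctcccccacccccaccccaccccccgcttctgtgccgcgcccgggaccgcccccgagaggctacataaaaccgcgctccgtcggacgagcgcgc
The windows of Cxcl1 and Cxcl2 each held 2 κB matches and that of Cxcl3 held 1. The Cxcl10 window held a κB, an AP-1 and an interferon response match, and that of Dusp1 held 1 CRE. Promoters were found for 35 of the 55 non-additive genes with a symbol. At least 1 promoter held a κB match in 10 of the 35 (Ccrl2, Cxcl1, Cxcl10, Cxcl2, Cxcl3, Ier3, Il1rn, Il6, Maff and Rsad2), against 5.62% of the 27025 genes in the RefSeq table. In Ccrl2, Il1rn and Maff other windows of the same gene held no κB match, and a gene with several windows has more chances of a match. The CRE was matched in Dusp1 and Maff, 2 of 35 against 1.77% of all genes. The AP-1 motif was matched in 5 of 35 against 7.82%, the interferon response motif in 7 of 35 against 8.18%, and the motif AAAGGTCA, bound by NR4A receptors, in 0 of 35 against 1.55%. These matches describe the letters in these windows and are not evidence of binding.

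Pearson's r between the 2 samples of a group, across tested genes, was 0.962 in NC, 0.981 in LPS, 0.970 in C498 and 0.971 in C498+LPS. Between 17528 and 18975 genes were above 0 in a sample, and since every sample sums to the same total the read depth is unknown. Nothing in the sources says whether the samples of a group came from separate cultures or animals, so the p-values measure only the spread between these samples. The 7 macrophage markers were all present, with a summed level of 19847 to 20355 TPM in NC, 16586 to 17222 in LPS, 15252 to 15412 in C498 and 10626 to 12411 in C498+LPS. Markers of fibroblasts summed to 150 to 192 TPM in NC, 176 to 200 in LPS, 633 to 750 in C498 and 618 to 911 in C498+LPS. In such bulk samples, a change in the number of cells of a type and a change in mRNA per cell cannot be told apart.

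The departures from log-additivity were mostly in one direction. Of the 57 non-additive genes, 48 had a negative interaction, among them Cxcl1, Cxcl2, Ccl3, Ccl4, Cxcl10, Il6, Tnf, Il1b, Ptgs2 and Nos2. In 9 genes the interaction was positive, among them Mknk2, Relt and Fabp4. The 57 genes were 0.468% of those tested, with 0.394% lower and 0.0738% higher than the log-additive expectation. Calls were made by limma, with p adjusted by the Benjamini-Hochberg method over all 12189 genes, and required an interaction of at least 2-fold and an adjusted p no higher than 0.05. Without adjustment, 1351 genes had a p under 0.05. The median interaction over all tested genes was -0.03, and 6449 of the 12189 genes lay below 0.

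The call of a single gene often rested on all 8 samples. With 1 sample left out, 9 to 92 genes were called, and the genes kept of the 57 were 43 without NC replicate 1, 28 without NC replicate 2, 5 without either LPS replicate, 7 and 12 without C498 replicate 1 and 2, and 10 and 13 without C498+LPS replicate 1 and 2. In each of these 8 fits all 57 kept their sign and an unadjusted p under 0.05, and no interaction changed by more than 1.21-fold. Ccl3, Ccl4, Cxcl1, Cxcl2 and Cxcl10 were called in all 8 of these fits and in all 8 other fits tried. Ier3, Relt, Edn1, Ehd1, Il12a, Tnfsf9, Inhba, Socs3, Osm, Tgtp2 and Rpl35a-ps6, 11 genes in all, were called in none of the fits that left out a sample.

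The sort by the C498 differences put most non-additive genes on the side of a changed baseline. C498 vs NC was called and C498+LPS vs LPS was not in 34 genes, the reverse held in 10, both differences were called in 8 and neither in 5. In 32 of the 34 genes with a changed baseline C498 had raised the gene and the interaction was negative. Over all tested genes C498 vs NC was called up in 5.64% and down in 1.36%, and C498+LPS vs LPS up in 5.39% and down in 2.18%. Since both differences share samples with the interaction, the sort is a description and was not tested. "Not called" here also covers differences under 2-fold: in 13 of the 32 genes C498+LPS vs LPS had an adjusted p of at most 0.05 but missed the fold threshold.

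**Figure D1:**
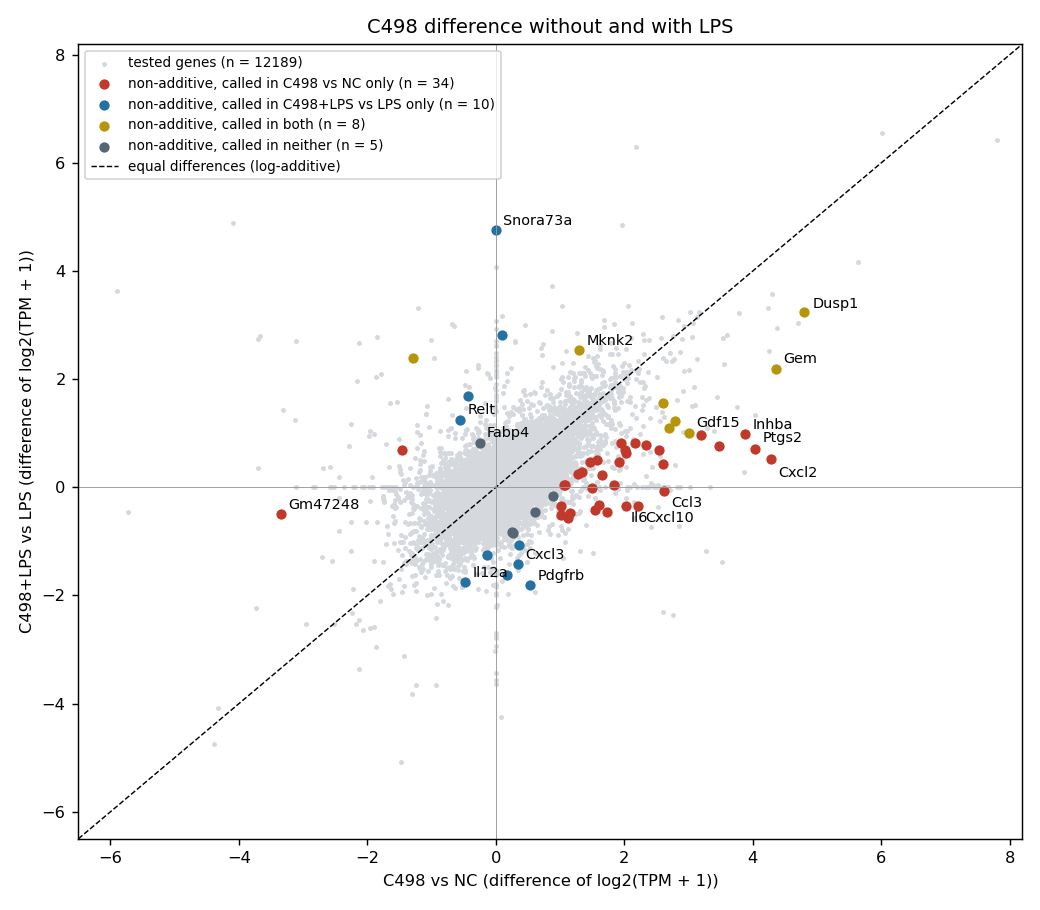
Each point is a gene, with the difference between C498 and NC on the horizontal axis and that between C498+LPS and LPS on the vertical axis, both as differences of log2(TPM + 1). Grey points are the 12189 tested genes, coloured points the 57 non-additive genes by their place in the sort, and points on the dashed line are log-additive. Most red points lie at right, near the horizontal zero line, as Cxcl2 does at 4.28 and 0.52. The rule of the sort keeps red points away from the vertical zero line and near the horizontal one.

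All 32 genes with a raised baseline were called up in LPS vs NC (5.55% of all tested genes were called up and 6.68% down). A negative interaction favours a high LPS vs NC difference by construction, so nothing is read from this count. In C498+LPS vs C498, 24 of the 32 were called up (2.52% up and 3.13% down over all tested genes). Their median difference on the log2 scale was 1.88 for C498 vs NC (range 1.01 to 4.28) and 0.27 for C498+LPS vs LPS (range -0.57 to 0.98). The median LPS difference was 3.51 under vehicle and 1.83 under C498. The choice of genes fixes which median of each pair is larger, so nothing is read from their order. In 18 of the 32 genes both C498+LPS samples lay above both LPS samples, in 9 they lay below, and in 5 they overlapped. C498 alone brought these genes to between 1.67% (Il6) and 262% (Rgs1) of their mean LPS level, with a median of 33.9%, and in 5 genes the C498 mean was at or above the LPS mean.

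Among chemokines, the neutrophil attractant Cxcl2 had the most negative interaction of all non-additive genes. Cxcl2 (chr5:90903871-90905938, GENCODE M21 on GRCm38, protein coding) was at 41.5 and 29.5 TPM in NC, 2678 and 2679.7 in LPS, 755 and 646 in C498 and 4235 and 3503 in C498+LPS. Both C498 samples lay far above NC but under LPS, and both C498+LPS samples lay above LPS. LPS raised the mean 75.5-fold under vehicle and 5.53-fold under C498, an interaction of -3.76 (SE 0.242, adjusted p = 0.0031) by limma. C498 alone raised Cxcl2 19.7-fold, while C498+LPS vs LPS differed by 0.52 on the log2 scale (adjusted p = 0.0821).

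Cxcl1 (chr5:90891241-90893115), a chemokine of the same family, was at 12.7 and 12.1 TPM in NC, 659 and 665 in LPS, 131 and 114 in C498 and 1407 and 1207 in C498+LPS. The 4 groups did not overlap, and C498+LPS was the highest of them. The interaction was -2.22 (SE 0.154, adjusted p = 0.00341) by limma, and C498+LPS vs LPS was 0.98 on the log2 scale (adjusted p = 0.00195), just under the 2-fold threshold. The Cxcl1 level under both agents was 1.69 times the sum expected if the TPM gains of C498 and LPS had simply added.

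Ccl3 and Ccl4 attract monocytes and T cells and lie side by side on chromosome 11. Ccl3 (chr11:83647844-83649355) was at 212 and 189.5 TPM in NC, 5953 and 5940.2 in LPS, 1339 and 1135 in C498 and 6133 and 5291 in C498+LPS. C498 lay between NC and LPS, and the C498+LPS samples fell on either side of the LPS samples. Its interaction was -2.68 (SE 0.164, adjusted p = 0.0031) by limma, with C498 vs NC at 2.62 and C498+LPS vs LPS at -0.06 on the log2 scale. Ccl4 (chr11:83662584-83664683) was at 61.1 and 67.2 TPM in NC, 2195 and 2297 in LPS, 430.1 and 365 in C498 and 3057 and 2974 in C498+LPS, with both C498+LPS samples above LPS. The Ccl4 interaction was -2.18 (SE 0.142, adjusted p = 0.0031) by limma, and C498 alone raised it by 2.61 on the log2 scale.

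Cxcl10, which draws CXCR3-bearing T cells, had a raised baseline too, but both its C498+LPS samples lay below LPS. Cxcl10 (chr5:92346638-92348889) was at 23.5 and 26.6 TPM in NC, 2716 and 2744 in LPS, 131 and 110.0 in C498 and 2011 and 2324 in C498+LPS. The C498 samples lay above NC, at 4.41% of the mean LPS level, and the groups did not overlap. The interaction was -2.55 (SE 0.169, adjusted p = 0.0031) by limma, with C498 vs NC called at 2.22 and C498+LPS vs LPS not called at -0.34 (adjusted p = 0.105). Ccl7, a monocyte chemokine, was at 51.8 and 61.8 TPM in NC, 562 and 563 in LPS, 220.5 and 212 in C498 and 723 and 845 in C498+LPS, without overlap between groups. Its interaction was -1.44 (SE 0.162, adjusted p = 0.0214) by limma.

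**Figure D2:**
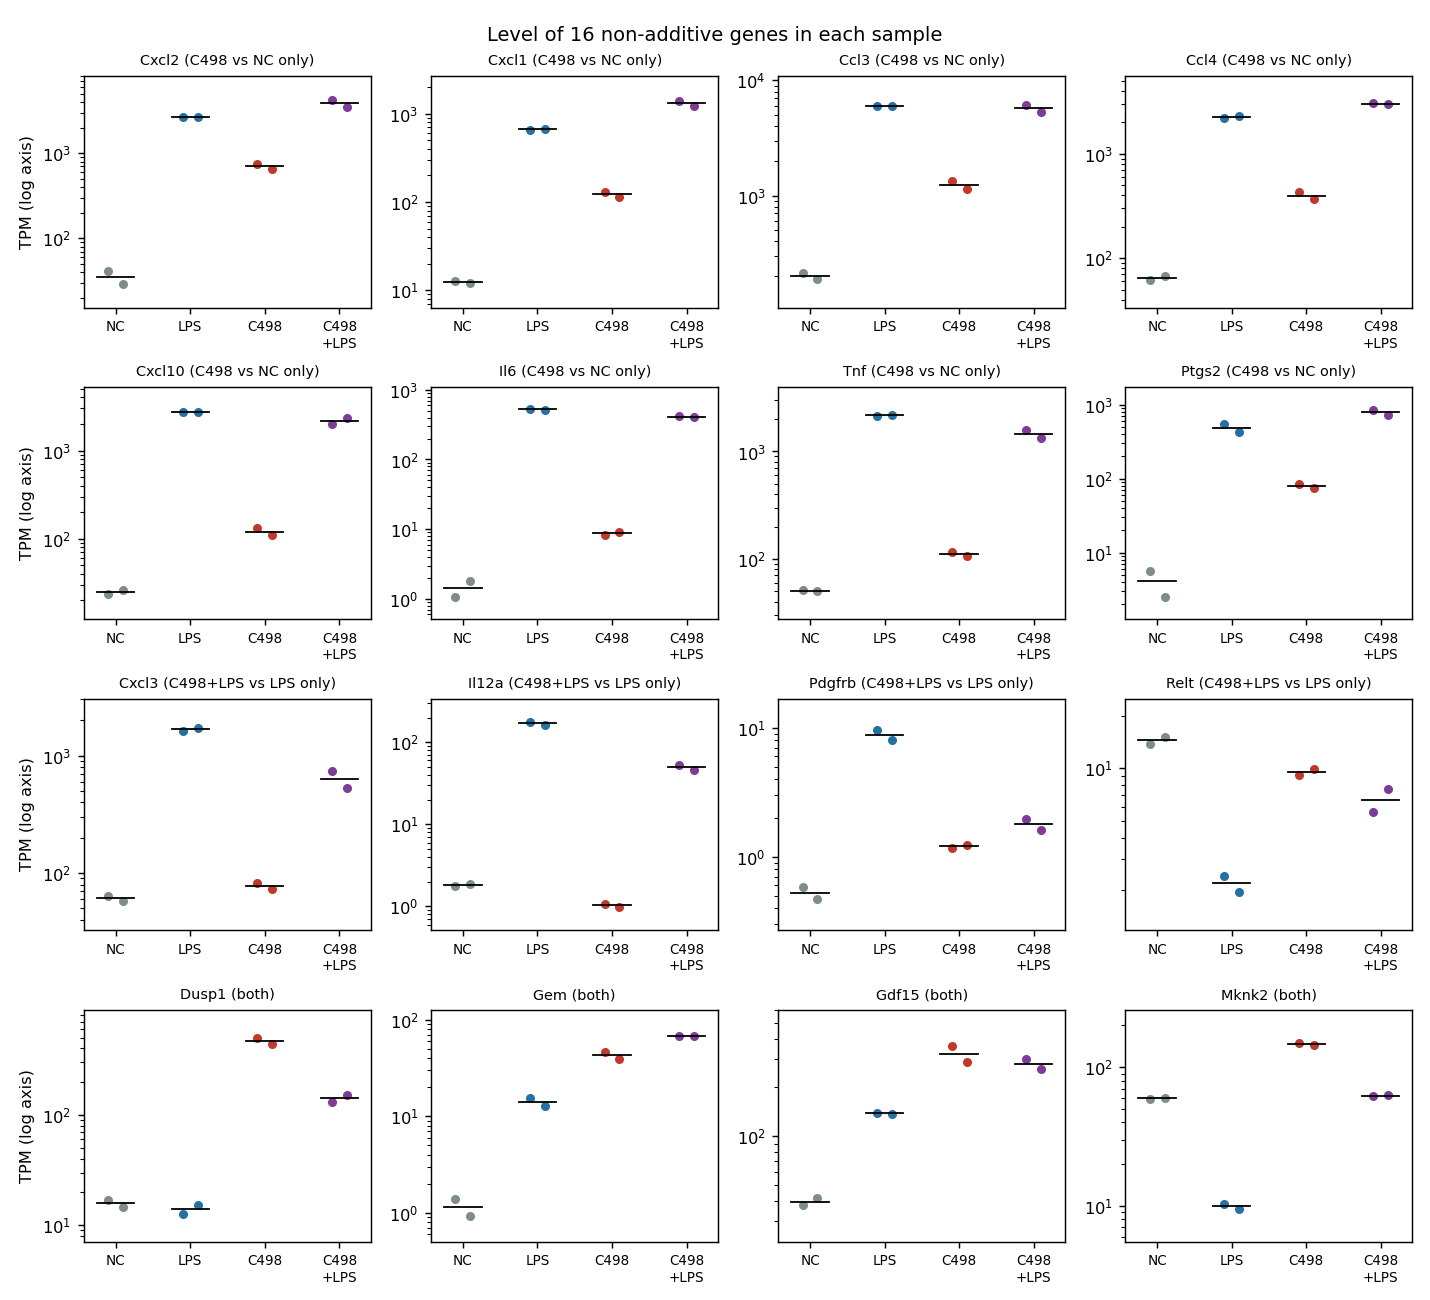
TPM on a log axis in each sample (points) with the group mean (bar) for 16 non-additive genes, with the place of each in the sort in the panel title. In Cxcl2, Cxcl1, Ccl4 and Ptgs2 both C498+LPS samples lie above LPS, whereas in Cxcl3, Il12a and Pdgfrb they lie below LPS.

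Among cytokines, Il6 and Tnf had a raised baseline, while their C498+LPS samples lay below LPS. Il6, which drives the acute phase response, was at 1.05 and 1.8 TPM in NC, 532 and 512 in LPS, 8.29 and 9.18 in C498 and 424 and 401 in C498+LPS. C498 lay above NC but at only 1.67% of the mean LPS level, and both C498+LPS samples lay below both LPS samples. The interaction of Il6 was -2.36 (SE 0.219, adjusted p = 0.0128) by limma, with C498 vs NC at 2.02 and C498+LPS vs LPS at -0.34 (adjusted p = 0.186). Tnf, the early inflammatory cytokine, was at 50.9 and 49.9 TPM in NC, 2157 and 2190.0 in LPS, 116 and 107 in C498 and 1588 and 1347 in C498+LPS. C498 samples were above NC and C498+LPS samples below LPS, with no overlap. Its interaction was -1.70 (SE 0.14, adjusted p = 0.00931) by limma, and the difference under LPS was -0.57 on the log2 scale (adjusted p = 0.00961), under the 2-fold threshold. Il1b, encoding interleukin-1β, was at 19.1 and 15.9 TPM in NC, 1626 and 1640.0 in LPS, 37.3 and 35.1 in C498 and 1443 and 1137 in C498+LPS, again with C498 above NC and C498+LPS below LPS. The Il1b interaction was -1.36 (SE 0.191, adjusted p = 0.0412) by limma.

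Csf3 encodes the granulocyte growth factor G-CSF and was at 2.74 and 1.93 TPM in NC, 32.5 and 34.7 in LPS, 9.87 and 12 in C498 and 32.2 and 36.9 in C498+LPS. The C498+LPS samples overlapped the LPS samples, and the interaction was -1.81 (SE 0.248, adjusted p = 0.0391) by limma. Il1rn, the natural antagonist of the interleukin-1 receptor, was at 88 and 75.3 TPM in NC, 371 and 351 in LPS, 184 and 162 in C498 and 379 and 367 in C498+LPS. It too overlapped between C498+LPS and LPS, with an interaction of -1.03 (SE 0.153, adjusted p = 0.0492) by limma. Tnfsf9, the ligand of the costimulatory receptor 4-1BB, was at 8.66 and 9.14 TPM in NC, 72 and 62.4 in LPS, 24.9 and 29.3 in C498 and 69.9 and 62.6 in C498+LPS, and its interaction was -1.52 (SE 0.188, adjusted p = 0.0295) by limma. In all 3 genes both C498 samples lay above NC and under LPS.

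Of 16 tested inflammatory enzymes C498 vs NC was called up in 5 (5.64% over all tested genes), and Ptgs2, Nos2 and Serpinb2 were non-additive with a raised baseline. Ptgs2 encodes cyclooxygenase-2, the inducible enzyme of prostaglandin synthesis, and was at 5.64 and 2.54 TPM in NC, 549 and 425 in LPS, 83.8 and 73.8 in C498 and 856 and 719.9 in C498+LPS. The 4 groups did not overlap, and C498+LPS was highest. Its interaction was -3.34 (SE 0.398, adjusted p = 0.0252) by limma, with C498 vs NC at 4.04. Nos2, the inducible nitric oxide synthase, was at 2.54 and 2.32 TPM in NC, 126 and 91.4 in LPS, 9.84 and 9.13 in C498 and 88.7 and 81 in C498+LPS, with both C498+LPS samples below LPS. The Nos2 interaction was -1.95 (SE 0.236, adjusted p = 0.0262) by limma. Serpinb2, a plasminogen activator inhibitor, was at 61.9 and 53 TPM in NC, 319.6 and 326 in LPS, 261 and 261 in C498 and 509.8 and 637 in C498+LPS, and its interaction was -1.35 (SE 0.178, adjusted p = 0.0344) by limma.

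Inhba, which encodes the activin A subunit of the TGF-β family, had overlapping levels under C498 alone and under LPS. It was at 7.45 and 4.68 TPM in NC, 103 and 71.4 in LPS, 113 and 90.1 in C498 and 209.9 and 138 in C498+LPS, and C498+LPS was the highest group. The interaction was -2.90 (SE 0.403, adjusted p = 0.0411) by limma, and LPS raised Inhba by 3.65 under vehicle but by 0.75 under C498 (adjusted p = 0.12). An assembled transcript with no gene symbol, MSTRG.5135, was at 25.1 and 17.6 TPM in NC, 745 and 648 in LPS, 244 and 246 in C498 and 1267 and 1093 in C498+LPS. There C498 lay between NC and LPS and C498+LPS was highest. Its interaction was -2.72 (SE 0.236, adjusted p = 0.0115) by limma.

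Cd14, Socs3, Sqstm1 and Rsad2 were also among the genes with a raised baseline. Cd14, the LPS co-receptor, was at 235 and 252 TPM in NC, 1352 and 1250.5 in LPS, 686 and 663 in C498 and 1797 and 1794 in C498+LPS, with an interaction of -1.001 (SE 0.113, adjusted p = 0.0214) by limma. Socs3, an inhibitor of cytokine receptor signalling, was at 65.5 and 61.8 TPM in NC, 283 and 254 in LPS, 168 and 156 in C498 and 352 and 303 in C498+LPS, with -1.05 (SE 0.152, adjusted p = 0.0436) by limma. In both genes the order of the groups was NC, C498, LPS and C498+LPS with no overlap. Sqstm1, the autophagy adaptor p62, was at 840.5 and 900.5 TPM in NC, 2412 and 2452 in LPS, 1849 and 1779 in C498 and 2641 and 2392 in C498+LPS, with -1.01 (SE 0.119, adjusted p = 0.0243) by limma, and its C498+LPS and LPS samples overlapped. Rsad2, the interferon-induced antiviral protein viperin, was at 96.8 and 66.9 TPM in NC, 1432 and 1345 in LPS, 164 and 164 in C498 and 1011 and 926 in C498+LPS, with -1.54 (SE 0.227, adjusted p = 0.0478) by limma, and C498+LPS was below LPS.

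Rgs1, a brake on G protein signalling, was the gene in this group whose LPS difference had the opposite sign under C498, without overlap of the samples. It was at 72.8 and 68 TPM in NC, 172 and 147 in LPS, 464 and 369 in C498 and 248 and 269 in C498+LPS. C498 alone was the highest group and lay above C498+LPS, which in turn lay above LPS. LPS vs NC was 1.16 and C498+LPS vs C498 was -0.68 on the log2 scale (adjusted p = 0.018, under the 2-fold threshold), for an interaction of -1.84 (SE 0.191, adjusted p = 0.019) by limma. The other raised-baseline genes were Mir155hg, Edn1, Ptx3, Gadd45b, Rasgef1b, Ccrl2, Hcar2, Cdkn1a, Pim1 and Mafk. In Mir155hg, Edn1 and Ptx3 both C498+LPS samples lay below LPS and in the other 7 above it.

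In 6 genes with a negative interaction C498 raised the level both with and without LPS, but by less with it. They were Gem, Gdf15, Maff, Osm, Dusp1 and Ier3, and in all 6 the C498 mean exceeded the LPS mean. Dusp1 was at 17 and 14.7 TPM in NC, 12.8 and 15.3 in LPS, 496 and 435 in C498 and 131 and 153 in C498+LPS. LPS and NC overlapped, both C498 samples stood far above them, and C498+LPS lay between. C498 vs NC was 4.79 (adjusted p = 1.08e-05) and C498+LPS vs LPS 3.25 (adjusted p = 8.19e-05) by limma, so the interaction was -1.54 (SE 0.198, adjusted p = 0.031). LPS changed Dusp1 by -0.16 under vehicle (adjusted p = 0.427), whereas Dusp1 fell with LPS under C498, a difference of -1.71 (adjusted p = 5.20e-04). Its level under both agents was 0.306 times the sum expectation.

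Gem, a small GTPase that restrains calcium channels, was at 1.38 and 0.93 TPM in NC, 15.5 and 12.8 in LPS, 46.5 and 39.6 in C498 and 68 and 68.3 in C498+LPS. The groups did not overlap and C498+LPS was highest, with an interaction of -2.16 (SE 0.235, adjusted p = 0.0213) by limma. Gdf15, a stress-induced member of the TGF-β family, was at 37.4 and 41.4 TPM in NC, 139 and 137 in LPS, 359 and 289 in C498 and 299 and 261 in C498+LPS. The C498 and C498+LPS samples overlapped, and the interaction was -1.99 (SE 0.181, adjusted p = 0.0128) by limma. Osm, encoding the cytokine oncostatin M, was at 4.55 and 4.71 TPM in NC, 12 and 9.54 in LPS, 40.2 and 36.2 in C498 and 28.4 and 24.6 in C498+LPS. It was highest under C498 alone and lower in both C498+LPS samples, with an interaction of -1.57 (SE 0.22, adjusted p = 0.0412) by limma.

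Maff, a small Maf transcription factor, was at 5.61 and 6.08 TPM in NC, 36.5 and 32 in LPS, 44.4 and 42.6 in C498 and 77 and 70.8 in C498+LPS, with an interaction of -1.61 (SE 0.168, adjusted p = 0.019) by limma. Ier3, an immediate-early gene, was at 70.4 and 65.9 TPM in NC, 189 and 168 in LPS, 454 and 389.5 in C498 and 523 and 533 in C498+LPS, with -1.05 (SE 0.149, adjusted p = 0.043) by limma. In both, C498+LPS was the highest group and C498 alone lay above LPS.

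In 6 genes with a negative interaction only the level under LPS passed the thresholds, and all 6 were lower in C498+LPS than in LPS. Cxcl3 (chr5:90786103-90789600) was at 64.2 and 57.9 TPM in NC, 1615 and 1720.2 in LPS, 82.6 and 72.8 in C498 and 735 and 527 in C498+LPS. The C498 samples lay slightly above NC, and both C498+LPS samples were well below LPS. C498 vs NC was 0.34 (adjusted p = 0.189) and C498+LPS vs LPS -1.42 (adjusted p = 0.00195) by limma. The interaction of Cxcl3 was -1.76 (SE 0.225, adjusted p = 0.031). Its neighbours Cxcl1 and Cxcl2 had C498+LPS vs LPS differences of 0.98 and 0.52.

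Il12a encodes the p35 subunit of interleukin-12, which directs T cells to a type 1 response, and was at 1.79 and 1.86 TPM in NC, 176 and 164 in LPS, 1.08 and 0.99 in C498 and 53.3 and 46.2 in C498+LPS. C498 was below NC and C498+LPS below LPS, with an interaction of -1.28 (SE 0.19, adjusted p = 0.0489) by limma. Ptges, the prostaglandin E synthase that acts after cyclooxygenase-2, was at 23.7 and 20.3 TPM in NC, 274 and 262 in LPS, 29.6 and 27.6 in C498 and 142 and 114 in C498+LPS. C498+LPS reached 0.479 times the mean LPS level, and the interaction was -1.43 (SE 0.19, adjusted p = 0.0351) by limma. By contrast, Ptgs2 in C498+LPS was 1.62 times its mean LPS level, although that difference had an adjusted p of 0.141 by limma.

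Parp10, an ADP-ribosyltransferase, was at 49.9 and 49.5 TPM in NC, 89 and 88 in LPS, 47.8 and 42.7 in C498 and 35.2 and 37.7 in C498+LPS. LPS lay above NC, and both C498+LPS samples lay below C498, with an interaction of -1.12 (SE 0.142, adjusted p = 0.031) by limma. Pdgfrb, the PDGF receptor β, best known from fibroblasts and pericytes, was low throughout at 0.58 and 0.47 TPM in NC, 9.63 and 8.03 in LPS, 1.18 and 1.24 in C498 and 1.97 and 1.62 in C498+LPS. LPS stood above the other groups, and the interaction was -2.35 (SE 0.301, adjusted p = 0.031) by limma. Fibroblast markers were higher in both C498 groups than in NC and LPS by the sums given above, and their part in the Pdgfrb difference was not tested. The ribosomal pseudogene Rps6-ps4 was at 363 and 325 TPM in NC, 619 and 529 in LPS, 432 and 349 in C498 and 185 and 184 in C498+LPS, with -1.80 (SE 0.183, adjusted p = 0.019) by limma, but reads from Rps6 and its copies can be assigned to it, so that its level is uncertain.

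Genes with a positive interaction were fewer, and in Relt, Mknk2 and Fabp4 the LPS difference was less negative under C498 than under vehicle. Relt, a TNF receptor family member, was at 13.8 and 15.2 TPM in NC, 2.42 and 1.95 in LPS, 9.13 and 9.97 in C498 and 5.64 and 7.57 in C498+LPS, with an interaction of 1.80 (SE 0.267, adjusted p = 0.0489) by limma. C498 lay below NC and C498+LPS above LPS.

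Mknk2, a kinase of the translation factor eIF4E, was at 59 and 60 TPM in NC, 10.4 and 9.49 in LPS, 150.3 and 145 in C498 and 61.6 and 63 in C498+LPS. C498 raised it without and with LPS, by 1.30 and 2.53, and C498+LPS came out close to NC. Its interaction was 1.24 (SE 0.135, adjusted p = 0.0213) by limma. Fabp4, a fatty acid carrier and PPARγ target, was at 368 and 418 TPM in NC, 92 and 98 in LPS, 324 and 335 in C498 and 169.8 and 169 in C498+LPS, with an interaction of 1.08 (SE 0.129, adjusted p = 0.0252) by limma. The groups did not overlap, and neither C498 difference reached 2-fold.

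A further 5 positive interactions were in transcripts whose levels are uncertain, and 3 of them rest on samples listed at 0. Snora73a, a small nucleolar RNA, was listed at 0 in the 6 samples of NC, LPS and C498 and at 35.5 and 18.9 TPM in C498+LPS. Rpl35a-ps6, a ribosomal pseudogene, was at 0 and 0 TPM in NC, 0 and 0 in LPS, 0.14 and 0 in C498 and 4.98 and 7.39 in C498+LPS. Gm47248, annotated as an antisense transcript, was at 8.9 and 9.35 TPM in NC, 9.82 and 10.7 in LPS, 0 and 0 in C498 and 8.81 and 5.48 in C498+LPS, and thus listed at 0 only in the C498 samples. The pseudogene Gm5776 was at 11 and 15 TPM in NC, 6.07 and 5.25 in LPS, 3.67 and 4.39 in C498 and 11.4 and 8.41 in C498+LPS, with an interaction of 2.17 (SE 0.311, adjusted p = 0.043) by limma. The assembled transcript MSTRG.19775 was at 13.2 and 22.9 TPM in NC, 2.3 and 3.55 in LPS, 5.82 and 7.37 in C498 and 17.1 and 21.9 in C498+LPS. Pseudogenes share reads with their parent genes, and without a stated strand setting reads of an antisense transcript and its partner cannot be told apart.

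In 4 genes with a negative interaction neither C498 difference was called. Traf1, a TNF receptor adaptor, was at 22.2 and 21.1 TPM in NC, 258 and 251 in LPS, 26.4 and 25.4 in C498 and 150.3 and 135 in C498+LPS, with an interaction of -1.08 (SE 0.136, adjusted p = 0.031) by limma. Ehd1, an endocytic recycling protein, was at 112 and 128 TPM in NC, 632 and 601 in LPS, 139 and 149 in C498 and 369.9 and 318 in C498+LPS, with -1.10 (SE 0.155, adjusted p = 0.0412) by limma. Igtp, an interferon-induced GTPase, was at 54.1 and 57 TPM in NC, 208 and 201 in LPS, 83.5 and 87.9 in C498 and 147 and 151 in C498+LPS, with -1.07 (SE 0.119, adjusted p = 0.0214) by limma. In all 3 C498 lay above NC and C498+LPS below LPS without overlap. Tgtp2, another such GTPase, was at 41.1 and 41.7 TPM in NC, 205 and 181 in LPS, 82.5 and 73.3 in C498 and 171 and 175 in C498+LPS, with -1.05 (SE 0.145, adjusted p = 0.0402) by limma, but it is nearly identical to Tgtp1 and its reads may be split.

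Whether a gene counts as non-additive depends on the scale. On the log scale the expected level is the product of the changes, C498 × LPS / NC, and on the TPM scale it is the sum, C498 + LPS - NC. Among the 32 raised-baseline genes the measured mean was 0.0391 (Edn1, at 0.14 and 0.1 TPM in NC) to 0.498 of the product. The product was taken from TPM without the added 1, so for low genes such as Edn1 it departs from the tested interaction. Against the sum it ran from 0.512 (Rgs1) to 1.69 (Cxcl1), with a median of 0.821. Both C498+LPS samples lay above the sum in 9 of the 32 genes, below it in 21, and on either side in 2. For Cxcl2 the sum was 3344 TPM, the product 52869 TPM and the measured mean 3869 TPM. For Tnf the corresponding values were 2235, 4800.1 and 1468 TPM, below both. In the 6 genes raised by C498 both with and without LPS the ratio to the sum ran from 0.306 (Dusp1) to 1.22 (Gem).

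**Figure D3:**
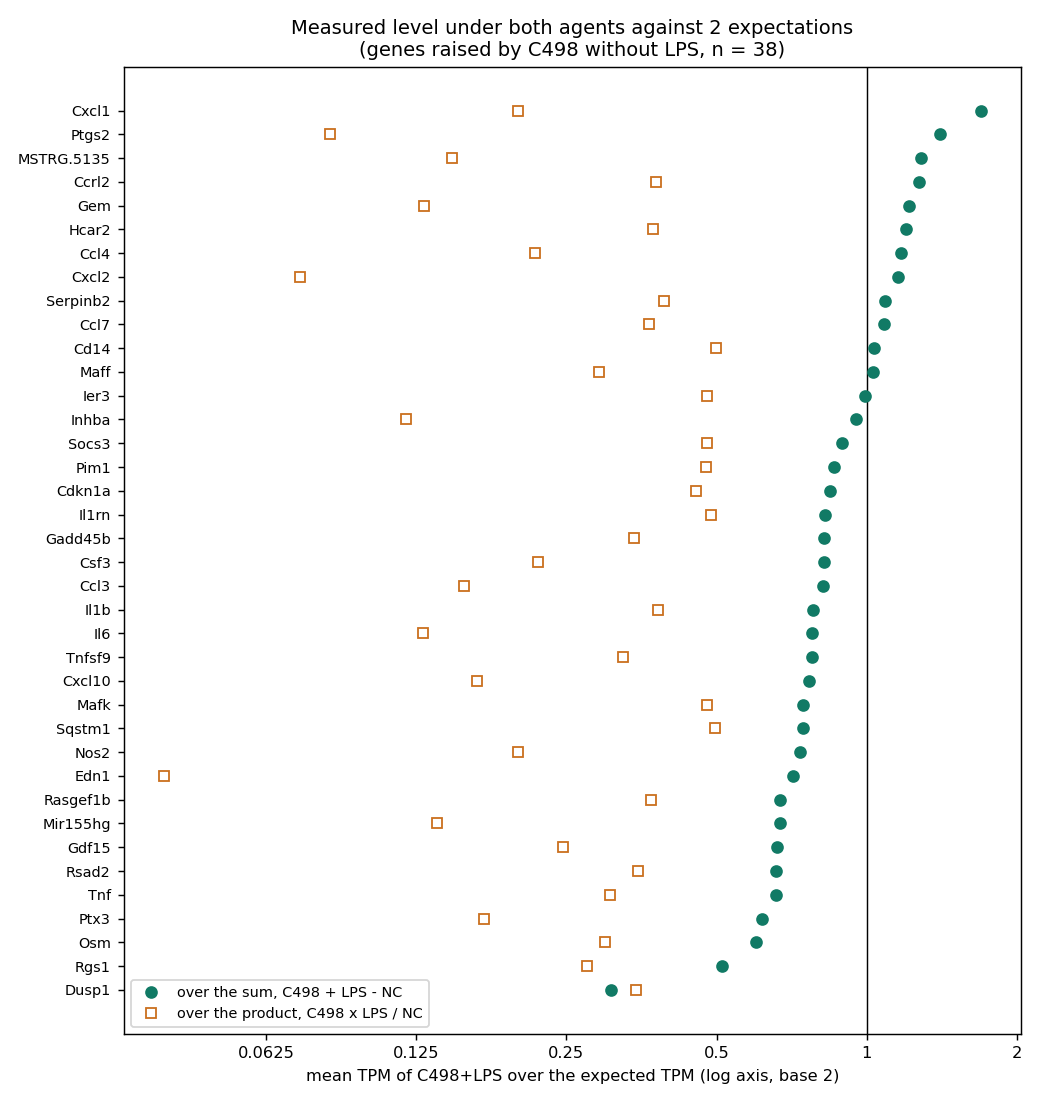
Mean TPM in C498+LPS divided by the sum expectation (filled circles) and by the product expectation (open squares), on a log axis, for the 38 genes with a negative interaction that C498 raised without LPS. All squares lie below 1, as the choice of genes fixes, while circles run from 0.306 (Dusp1) to 1.69 (Cxcl1).

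The non-additive genes were set against lists of pathway genes, which were drawn up with earlier results of these data known. Among inflammatory cytokines 8 of 21 tested genes were called lower (Tnf, Il1b, Il1rn, Il6, Il12a, Csf3, Osm and Tnfsf9), with a median interaction of -1.10, against 0.394% called lower and a median of -0.03 over all tested genes. Among chemokines 7 of 19 were called lower (Ccl3, Ccl4, Ccl7, Cxcl1, Cxcl2, Cxcl3 and Cxcl10), with a median of -0.76. Among inflammatory enzymes 4 of 16 were called lower (Nos2, Ptgs2, Ptges and Serpinb2), with a median of -0.82, and all 16 interactions were below 0. Called lower refers here to the interaction and not to the level under LPS. C498+LPS vs LPS was called up in 5 and down in 4 of the cytokines (5.39% and 2.18% over all tested genes). It was called up in 2 and down in 2 of the chemokines, and likewise of the enzymes.

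The signalling components were counted in the same way, beside 0.468% called in either direction, 5.55% called up in LPS vs NC and 1351 of 12189 genes with an unadjusted interaction p under 0.05 over all tested genes. Of 17 genes of the LPS receptor and its adaptors 1 was called (Cd14) and 4 had an unadjusted p under 0.05, with 14 below 0 and a median interaction of -0.38. Of 18 NFκB subunits and inhibitors 0 were called by limma, although 11 had an unadjusted p under 0.05, 16 lay below 0 and the median was -0.58. Tnfaip3, which encodes the NFκB inhibitor A20, was at 33 and 22.5 TPM in NC, 199 and 164 in LPS, 103 and 96.4 in C498 and 241 and 221 in C498+LPS, with -1.48 (SE 0.256, adjusted p = 0.0749) by limma. Nfkbia, encoding IκBα, was at 175 and 148 TPM in NC, 719 and 640.5 in LPS, 300.1 and 265 in C498 and 759.9 and 784 in C498+LPS, with -0.62 (SE 0.162, adjusted p = 0.222) by limma. Of 18 JAK, STAT and SOCS genes 1 was called (Socs3) and 6 had an unadjusted p under 0.05, with 14 below 0 and a median of -0.31. Of 32 interferon-stimulated genes 1 was called (Rsad2) and 13 had an unadjusted p under 0.05, with 30 below 0 and a median of -0.42, and in 23 LPS vs NC was called up. Isg15, a ubiquitin-like protein and 1 of the 2 members not below 0, was at 503 and 535 TPM in NC, 2547 and 2369 in LPS, 452 and 487 in C498 and 2211 and 2302 in C498+LPS, with an interaction of 0.02 (SE 0.118, adjusted p = 0.962) by limma.

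Most immediate-early genes were raised by C498 with and without LPS. Of 28 tested, C498 vs NC was called up in 23 (5.64% over all tested genes) and C498+LPS vs LPS in 17 (5.39%). In the interaction 3 were called lower (Ier3, Maff and Dusp1, against 0.394%), with a median of -0.70. Fos was at 15.9 and 14.3 TPM in NC, 1.89 and 2.27 in LPS, 76.3 and 80.3 in C498 and 18.1 and 20.5 in C498+LPS, and its interaction of 0.42 was not called (adjusted p = 0.499 by limma). Nr4a1, an orphan nuclear receptor, was at 0.97 and 1.27 TPM in NC, 1.44 and 1.79 in LPS, 105 and 104 in C498 and 42.8 and 49.8 in C498+LPS, and its interaction of -1.47 narrowly missed the threshold (adjusted p = 0.0504 by limma). Junb, a subunit of AP-1, had an adjusted p of 0.0391 by limma, but its interaction of -0.90 was under 2-fold.

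In stress and metabolic lists 0 or 1 genes were called per list, beside 0.468% called and 1351 of 12189 with an unadjusted p under 0.05 over all tested genes. Of 12 heat shock genes 0 were called by limma, 3 had an unadjusted p under 0.05 and the median was 0.03, while C498 vs NC was called up in 5 (5.64% over all tested genes) and C498+LPS vs LPS in 4 (5.39%). Hspa1a, an inducible HSP70 chaperone, was at 2.74 and 2.59 TPM in NC, 3.36 and 3.79 in LPS, 51.8 and 47.9 in C498 and 37.5 and 46.8 in C498+LPS, with -0.56 (SE 0.22, adjusted p = 0.409) by limma. By limma 0 of 15 targets of ATF4 and CHOP (median -0.02), 0 of 20 glycolysis and HIF-1 genes (median -0.11) and 0 of 11 MHC class II genes (median -0.18) were called, with 3 genes at an unadjusted p under 0.05 in each list. Of 15 NRF2 targets 1 was called (Sqstm1, median -0.25) and 5 had an unadjusted p under 0.05. Of 22 sterol and lipid genes 1 was called higher (Fabp4, median -0.19) and 8 had an unadjusted p under 0.05, and of 18 TGF-β genes 1 was called lower (Inhba, median 0.07) and 5 had an unadjusted p under 0.05.

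**Figure D4:**
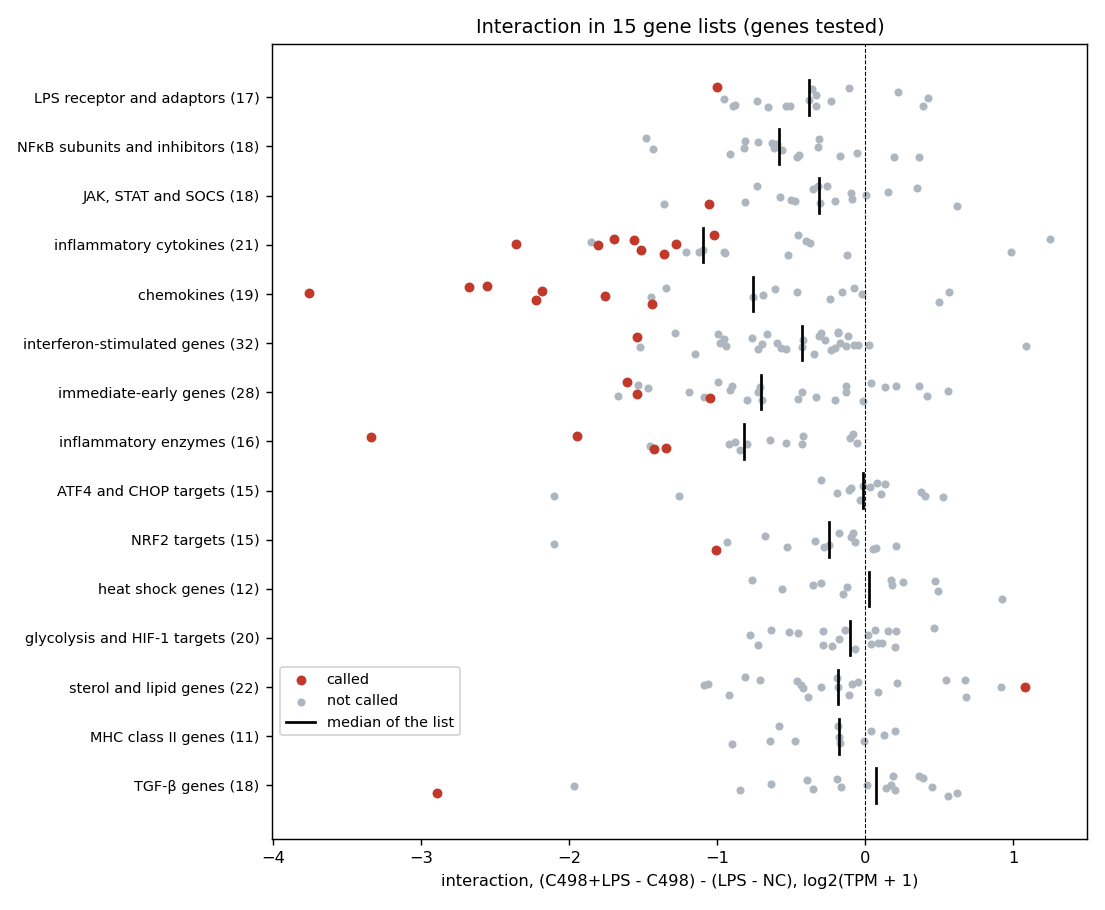
Interaction on the log2(TPM + 1) scale for each tested gene (points) of 15 gene lists, with the number tested in brackets, called genes in red and the median of the list as a bar. The medians of cytokines, chemokines and inflammatory enzymes lie at -1.10, -0.76 and -0.82, and that of heat shock genes at 0.03.

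Several genes that the study names in its RNA-seq analysis were not called in the interaction. There it names Ifng, Stat3, Tnfsf10, Irf7 and Il10ra as regulators whose activity was predicted, and Tlr4 as the LPS receptor. Jak2 is named as a hub of a protein network, and Il1a is included for a hub given only as IL-1. The study describes no interaction test, so the values below do not test its statements. Of the 14 named genes tested, 6 were called, all lower (0.394% over all tested genes). The list was chosen on these samples, so that its count is not independent evidence. Ifng, encoding interferon-γ, was at 0.88 and 1.15 TPM in NC, 5.65 and 5.22 in LPS, 12.7 and 14.7 in C498 and 25.9 and 48 in C498+LPS, with an interaction of -0.37 (SE 0.393, adjusted p = 0.771) by limma. Il1a, encoding interleukin-1α, was at 52.9 and 39.8 TPM in NC, 1647 and 1421 in LPS, 99.1 and 84 in C498 and 1603 and 1231 in C498+LPS, with -1.10 (SE 0.258, adjusted p = 0.169) by limma. In both genes C498 lay above NC. In Ifng C498+LPS lay above LPS, while in Il1a these groups overlapped. The kinase gene Jak2 was at 35.5 and 21.2 TPM in NC, 155 and 131 in LPS, 36.9 and 35.2 in C498 and 115 and 96.2 in C498+LPS, with -0.81 (SE 0.321, adjusted p = 0.417) by limma, and the transcription factor gene Stat3 was at 89.1 and 61.9 TPM in NC, 88.6 and 97.4 in LPS, 100.4 and 107 in C498 and 106 and 96.5 in C498+LPS, with -0.36 (SE 0.237, adjusted p = 0.645) by limma.

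Tnfsf10, encoding the death ligand TRAIL, was at 1.63 and 1.27 TPM in NC, 14.1 and 15.1 in LPS, 0.64 and 0.62 in C498 and 4.97 and 3.87 in C498+LPS. Its C498+LPS vs LPS difference was called at -1.53 (adjusted p = 0.00345), but the interaction was -0.95 (SE 0.286, adjusted p = 0.299) by limma. Tlr4 was at 27.8 and 15.3 TPM in NC, 14.1 and 12.6 in LPS, 16 and 13.9 in C498 and 7.1 and 4.53 in C498+LPS, with C498+LPS vs LPS at -1.10 (adjusted p = 0.0446) and an interaction of -0.66 (SE 0.418, adjusted p = 0.631) by limma. Irf7, an interferon regulatory factor, was at 862 and 1062 TPM in NC, 1039 and 1008 in LPS, 777 and 864 in C498 and 689.9 and 766 in C498+LPS, with an interaction of -0.27 (SE 0.168, adjusted p = 0.617) by limma. Il10ra, encoding the interleukin-10 receptor chain, was at 23.9 and 20.9 TPM in NC, 29.2 and 23.2 in LPS, 15.5 and 16.1 in C498 and 16 and 15.6 in C498+LPS, with -0.21 (SE 0.208, adjusted p = 0.754) by limma. A p above the threshold does not show that the 2 LPS responses were alike.

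Markers of fibroblasts and mesothelial cells were higher with C498. All 5 tested fibroblast markers were called up in C498 vs NC (5.64% over all tested genes) and 4 in C498+LPS vs LPS (5.39%), and of 4 tested mesothelial markers 2 were called up in each. By limma 0 of 7 macrophage, 0 of 3 neutrophil and 0 of 3 B cell markers were called in C498 vs NC, with 4, 2 and 1 at an unadjusted p under 0.05. In C498+LPS vs LPS 1 of the 3 neutrophil markers was called down (median -1.26, against 2.18% called down over all tested genes) and 1 of the 3 B cell markers up (median 0.86). Of 1 T cell, 1 endothelial and 4 mast cell markers tested, 0 were called in C498 vs NC by limma and 0 had an unadjusted p under 0.05, and of NK cell and eosinophil markers 0 were tested. In the interaction 0 of the 28 tested markers were called by limma, beside 0.468% of all tested genes, and 1, a macrophage marker, had an unadjusted p under 0.05. Mesothelial markers summed to 4.66 to 5.58 TPM in NC, 5.0 to 5.36 in LPS, 14.8 to 20.9 in C498 and 15.5 to 24.5 in C498+LPS. Neutrophil markers summed to 113 to 166 TPM in NC, 132 to 155 in LPS, 70.9 to 72.9 in C498 and 84.9 to 98.2 in C498+LPS, with Elane and Ngp listed at 0. B cell markers summed to 17.7 to 24.6 TPM in NC, 24.4 to 24.9 in LPS, 42.0 to 54.5 in C498 and 41.6 to 119 in C498+LPS. The part of these cells in the raised baseline of the cytokine and chemokine genes was not tested.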

How the data were processed

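RNA was sequenced on an Illumina NovaSeq. The authors used fastp to filter reads, HISAT2 for alignment, StringTie for transcript assembly and RSEM for quantification; versions, genome build and annotation are not given in the sources used here. The deposited values are TPM per gene and sample, which keep no read depth. The authors' mean TPM per group and gene lengths were deposited beside them, and DESeq2 was the authors' test at the same thresholds.

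TPM values were transformed as log2(TPM + 1), which understates changes of low genes. The genes whose mean reached 1 TPM were fitted in all 8 samples with 1 mean per group, using limma 3.58.1 (R 4.3.3) with a variance trend and 4 residual degrees of freedom; p was adjusted by the Benjamini-Hochberg method over the 12189 genes. The interaction was (C498+LPS - C498) - (LPS - NC). The steps were tested on simulated data. Python 3.11.15 with pandas 2.3.3, numpy 2.4.6 and matplotlib 3.10.9 was used for summaries and figures. Positions are from GENCODE M21 on GRCm38, which held 11880 of the tested identifiers, and promoters from RefSeq.

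Every called gene with a symbol is named, except 1 that is not reported here. Values per sample are given for up to 5 genes with the largest interaction per class and direction, for called members of the lists and for genes the study names (Ifnb1 was not tested); Rgs1, the assembled transcripts and further list members were chosen after their values were seen. Members and lists were chosen with earlier results of these data known. Alternatives were other pseudocounts, filters and scalings, no variance trend, a replicate block, no fold threshold, each sample left out, another rule for the sort and an additive expectation in TPM.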

Additional observations from a re-analysis of the deposited data

Results flagged for a closer look

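The LPS response differed between vehicle and C498 by the interaction test in 48 genes in the negative and 9 in the positive direction, which are the 57 genes of the report and meet this criterion by construction. In 6 of them the LPS difference also had opposite signs, with the samples of LPS and NC and those of C498+LPS and C498 not overlapping in either case. Rgs1 (interaction -1.84) and Osm (-1.57) were higher in LPS than in NC and lower in C498+LPS than in C498. Parp10 (-1.12) and the pseudogene Rps6-ps4 (-1.80) showed the same order. Gm5776 (2.17) and the assembled transcript MSTRG.19775 (3.68) were lower in LPS than in NC and higher in C498+LPS than in C498. By limma at the thresholds of the report, both LPS differences passed in Gm5776 and MSTRG.19775. The C498+LPS vs C498 difference did not pass in Rgs1 (-0.68, adjusted p = 0.018, under 2-fold), Osm (-0.51, adjusted p = 0.0664) or Parp10 (-0.30, adjusted p = 0.0848), and LPS vs NC was under 2-fold in Parp10 (0.82) and Rps6-ps4 (0.73). With 2 samples a group, no group was large enough to look for single outlying samples.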

How the results depend on the processing

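The 57 genes called (48 lower, 9 higher) kept their sign in every fit that included them, and 55 were still tested at a mean TPM of at least 5. Without the filter on low values 15 genes were called lower and 3 higher, and without the variance trend 9 and 3. Of the 57 genes, 33 were still called after centring on the median gene and 35 with a pseudocount of 5. Quantile normalization kept 47 and a pseudocount of 0.1 kept 55. The sort (34 changed baseline, 10 changed under LPS, 8 both, 5 neither) became 10, 4, 3 and 1 without the filter and 9, 3, 0 and 0 without the trend. A pseudocount of 5 left 21 with a changed baseline and 4 in both, quantile normalization gave 8 in neither, and dropping the fold threshold gave 23 in both and 0 in neither. Sorted by the larger C498 difference alone, 42 fell to the baseline and 15 to the level under LPS. With 1 sample left out, where the lone sample of its group is assumed to vary like the other groups, calls ran from 9 to 64 lower and from 0 to 28 higher, with 5 to 66 changed baseline, 1 to 17 under LPS, 0 to 9 both and 0 to 10 neither; 11 of the 57 genes were called in none of these fits. The causes were not tested.

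The labels tie replicate numbers to no shared animal or day. Deviations of same-numbered samples correlated at 0.0397 to 0.168 across genes, and with a replicate block 72 genes were called lower and 12 higher, 56 of the 57 among them, with 17 under LPS and 12 in neither.

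Against the additive expectation in TPM, the log2 ratio of the measured level was positive, and so reversed, for Cxcl1 (0.76), Ptgs2 (0.49), MSTRG.5135 (0.36), Ccrl2 (0.35), Gem (0.28), Hcar2 (0.26), Ccl4 (0.23), Cxcl2 (0.21), Ccl7 (0.12), Serpinb2 (0.12), Cd14 (0.052) and Maff (0.039), and negative for Mknk2 (-0.65). Since TPM values keep no depth, counting noise is known only through 2 samples a group.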

Other observations

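Hspb1, Ddit4 and Jun differed with C498 both without and with LPS and were not called in the interaction. Hspb1, a small heat shock protein, was at 9.2 and 10.6 TPM in NC, 9.65 and 9.36 in LPS, 45.1 and 47.2 in C498 and 64.2 and 114 in C498+LPS, with C498 differences of 2.11 without and 3.04 with LPS on the log2 scale and an interaction adjusted p of 0.393 by limma. Ddit4, a stress-induced inhibitor of mTORC1, was at 4.38 and 5.35 TPM in NC, 5.61 and 6.14 in LPS, 24.3 and 27.9 in C498 and 29.7 and 38.4 in C498+LPS, with differences of 2.21 and 2.34 and an interaction adjusted p of 0.88 by limma. Jun, a subunit of AP-1, was at 94.7 and 77.7 TPM in NC, 27.6 and 26.2 in LPS, 320.4 and 275 in C498 and 85.7 and 86.6 in C498+LPS, and C498+LPS came out near NC. The interaction of Jun was -0.13 (adjusted p = 0.818 by limma). Irf8, a macrophage transcription factor in the interferon-stimulated list, was at 90.7 and 87.4 TPM in NC, 118 and 93 in LPS, 122 and 106 in C498 and 299 and 269.6 in C498+LPS, highest in C498+LPS, with C498 differences of 0.35 without LPS (adjusted p = 0.125) and 1.43 with it (adjusted p = 0.00122) by limma and an interaction of 1.08 that was not called (adjusted p = 0.0783 by limma). These genes were chosen after their values were seen.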
